A study of Mus musculus with 12 samples.

Results

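The genes described here are 33 genes of DNA replication and of the passage from G1 into S phase, picked by name as a module and looked up by gene symbol in 3 deposited tables of read counts from mouse splenic B cells. All 33 were found in each table, among 55359 genes in the table of untreated cells, and all 33 passed the filter on low counts in every comparison. They fall into 10 roles: the 6 MCM helicase subunits (Mcm2 to Mcm7), 2 licensing factors (Cdc6, Cdt1), 5 genes of helicase activation (Cdc45, Gins1, Gins2, Gins3, Mcm10), 2 of the priming polymerase (Pola1, Prim1), 4 of the sliding clamp and its loader (Pcna, Rfc3, Rfc4, Rfc5), 2 of Okazaki fragment maturation (Fen1, Lig1), 4 of deoxynucleotide synthesis (Rrm1, Rrm2, Tyms, Tk1), 3 G1/S regulators (Ccne1, Ccne2, E2f1), 3 chromatin genes (Chaf1b, Uhrf1, Slbp) and 2 of fork checkpoint and licensing control (Clspn, Dtl).

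B cells were purified from spleen by taking out cells that carry CD43, and their poly(A) RNA was sequenced. Double knockout (DKO) mice lacked Hnrnpa1 and Hnrnpa2b1 after Cre-loxP recombination, the Cre driver not being given in the sources used here. These genes encode hnRNP A1 and hnRNP A2B1, which bind RNA in the nucleus and shape its splicing. The groups were DKO cells given anti-IgM at 10 µg/mL together with anti-CD40 at 1 µg/mL over 48 h (2 libraries, called stimulated), wild-type (WT) cells stimulated in the same way (2 libraries), untreated DKO cells (3 libraries), untreated WT cells (3 libraries) and additional untreated WT cells (2 libraries). Age and strain are not in the labels. No label ties a library to an animal of its own, so the spread behind each p-value may be technical in part, and in stimulated cells in full. Each untreated group of 3 held libraries that read as male and as female (below), which come from different animals.

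Before S phase, the origin recognition complex, CDC6 and CDT1 load the MCM helicase onto DNA, a step called licensing. Cyclin E with CDK2 and the kinase CDC7 then start the helicase through CDC45 and the GINS complex, after which primase, the clamp PCNA and the polymerases copy both strands with deoxynucleotides made by ribonucleotide reductase, thymidylate synthase and thymidine kinase. Transcription of most of these genes is driven by E2F factors in late G1 and S phase. Resting splenic B cells are in G0, and signals through the B cell receptor and CD40 bring them into cycle.

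Promoter windows from 250 bases before to 50 bases after the start, taken from RefSeq on build GRCm38.p6, were held for 29 of the 33 genes. They were not held for Mcm4, Gins1, Gins2 and Ccne2. An E2F-type motif (TTTGGCGC, TTTCCCGC, TTTGGCGG or TTTCCCGG on either strand) lay in the windows of 12 of the 29 genes, a share of 41.4%, against 3.79% of the 27025 genes with windows of the same length. The 12 genes were Mcm3, Mcm5, Mcm6, Mcm7, Cdc6, Cdt1, Gins3, Pola1, Rfc3, Lig1, Clspn and Dtl. The CCAAT box, searched as CCAAT on either strand, lay in 62.1% of the 29 genes, against 41.1% of all genes. The cell cycle homology region (CHR), searched as TTTGAA or TTCGAA on either strand and known from promoters of mitosis genes, lay in 20.7% of the 29 genes, against 21.7% of all genes. Of 26 mitosis genes set beside them 76.9% held a CHR match and 3.85% an E2F match. A match is a run of letters and not a measured binding site.

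**Figure D1:**
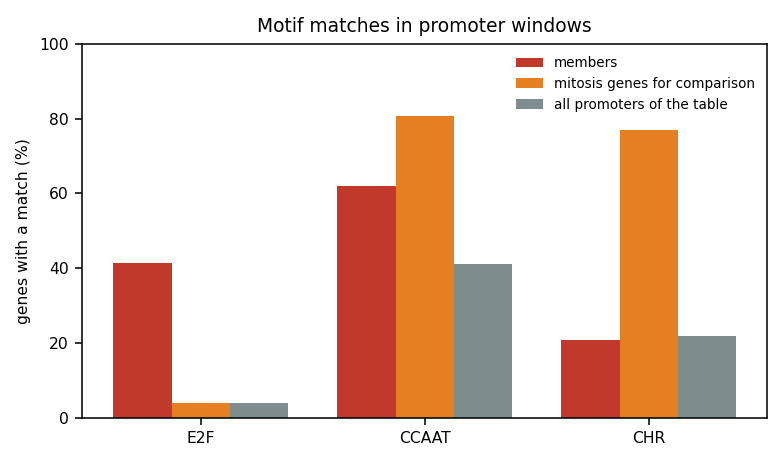
Share of genes (y axis, %) whose promoter window holds a match to the E2F, CCAAT or CHR motif, for the 29 replication and G1/S genes with a window, 26 mitosis genes and all 27025 genes of the table. The E2F bar of the replication and G1/S genes reaches 41.4%, against 3.79% for all genes, while the CHR bar is highest, 76.9%, for the mitosis genes.

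The windows of 5 genes are shown 5′ to 3′ on the strand of the gene, with E2F matches on either strand in capitals. They belong to Mcm6, Cdt1 and Tyms, which passed the test between DKO and WT cells without stimulation, to Dtl, which had the highest positive estimate there, and to Clspn, which had the highest rise after stimulation in WT cells. Mcm6 and Dtl hold 2 matches each, Cdt1 and Clspn 1 each, and the Tyms window holds no match to any of the 3 motifs.
Mcm6, chr1:128359656-128359955, minus strand: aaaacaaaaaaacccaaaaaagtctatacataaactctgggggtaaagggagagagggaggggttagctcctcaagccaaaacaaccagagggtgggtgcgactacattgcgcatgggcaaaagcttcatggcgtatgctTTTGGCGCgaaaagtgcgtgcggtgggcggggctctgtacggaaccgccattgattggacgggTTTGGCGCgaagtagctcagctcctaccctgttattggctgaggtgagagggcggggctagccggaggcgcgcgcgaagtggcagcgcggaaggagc
Cdt1, chr8:122567765-122568064, plus strand: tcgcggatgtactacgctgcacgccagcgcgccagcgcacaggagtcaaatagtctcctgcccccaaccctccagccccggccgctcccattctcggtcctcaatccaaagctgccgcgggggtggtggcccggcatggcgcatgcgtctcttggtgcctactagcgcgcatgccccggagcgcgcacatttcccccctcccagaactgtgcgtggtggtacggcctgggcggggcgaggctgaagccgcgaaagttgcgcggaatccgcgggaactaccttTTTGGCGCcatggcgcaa
Dtl, chr1:191575495-191575794, minus strand: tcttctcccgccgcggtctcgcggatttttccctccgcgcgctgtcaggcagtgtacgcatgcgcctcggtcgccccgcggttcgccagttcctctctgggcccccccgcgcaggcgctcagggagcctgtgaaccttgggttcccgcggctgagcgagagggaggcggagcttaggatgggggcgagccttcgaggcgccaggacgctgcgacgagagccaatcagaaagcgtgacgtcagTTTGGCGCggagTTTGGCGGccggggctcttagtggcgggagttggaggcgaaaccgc
Clspn, chr4:126556730-126557029, plus strand: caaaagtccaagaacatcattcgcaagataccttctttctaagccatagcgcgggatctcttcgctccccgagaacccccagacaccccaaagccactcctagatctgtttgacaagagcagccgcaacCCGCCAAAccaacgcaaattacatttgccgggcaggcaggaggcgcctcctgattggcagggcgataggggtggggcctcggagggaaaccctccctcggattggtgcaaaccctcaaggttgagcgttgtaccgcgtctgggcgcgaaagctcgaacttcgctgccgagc
Tyms, chr5:30073576-30073875, minus strand: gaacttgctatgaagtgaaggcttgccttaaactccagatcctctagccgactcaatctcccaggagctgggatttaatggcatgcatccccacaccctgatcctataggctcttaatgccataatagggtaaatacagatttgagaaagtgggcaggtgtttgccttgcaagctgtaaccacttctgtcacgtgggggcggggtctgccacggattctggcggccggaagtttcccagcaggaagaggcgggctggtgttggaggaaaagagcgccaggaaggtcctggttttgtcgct

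Depth ranged from 15090953 to 21731893 counts per library, and the lowest count of any of the 33 genes in a library was 184. Both targeted genes were reduced in DKO cells. Hnrnpa1 averaged 263 ± 27.9 CPM (CPM, counts scaled to a common library size after TMM factors, mean ± SD) in stimulated DKO, against 1680 ± 55.4 CPM in stimulated WT, and 127 ± 66.2 CPM in untreated DKO, against 699 ± 17.2 CPM in untreated WT. Hnrnpa2b1 averaged 399 ± 41.8 CPM in stimulated DKO, against 1770 ± 38.6 CPM in stimulated WT, and 456 ± 153 CPM in untreated DKO, against 1850 ± 107 CPM in untreated WT. The RNA was reduced unevenly. Untreated DKO 1, 2 and 3 had 78.3, 203 and 101.5 CPM of Hnrnpa1 and 341, 630 and 396 CPM of Hnrnpa2b1. How this bears on the results was not tested. Summed B cell markers (6 of 6 detected) were 4220 to 5090 CPM in stimulated DKO, against 5640 to 5860 CPM in stimulated WT, and 2700 to 3170 CPM in untreated DKO, against 3230 to 3630 CPM in untreated WT. They were lower in DKO without overlap in both cultures, and their part in the results was not tested. By Xist and Ddx3y, 2 untreated libraries read as female, DKO 1 with 2004 CPM of Xist and WT 2 with 2117 CPM, and the other 8 read as male, with 81.7 to 158 CPM of Ddx3y.

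The libraries that read as female were set apart in the 33 genes. The library DKO 1 was the lowest of the 3 untreated DKO libraries in all 33 genes, and WT 2 was the lowest of the untreated WT libraries in 31 of 33. The share of all genes lowest in these libraries was not computed. Both also stood apart over the genes at large. The chi-square per gene of DKO 1 with DKO 2 and DKO 3 was 19.6 and 17.0, against 9.73 between DKO 2 and DKO 3. That of WT 2 with WT 1 and WT 3 was 25.2 and 16.1, against 7.63 between WT 1 and WT 3. The ratio of the female-reading library to the mean of the others had a median of 0.719 in DKO (range 0.540 to 0.927) and 0.748 in WT (range 0.607 to 1.09). Sex was thus balanced between the genotypes, with 1 of 3 libraries each, but these 2 libraries widened the spread within both groups, and all stimulated libraries read as male. Whether sex or something else about these 2 libraries set the level was not tested. Results are therefore given with and without a term for sex. The 2 stimulated DKO libraries differed from each other more than any other replicates, with a chi-square per gene of 50.1, against 7.63 to 25.2 within the other groups.

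The untreated cells already held many transcripts of these genes. Summed over the 33 genes, stimulated DKO libraries held 7801 and 7087 CPM and stimulated WT libraries 6094 and 5412 CPM, against 4414, 6053 and 6103 CPM in untreated DKO and 5617, 4105 and 4932 CPM in untreated WT libraries. Per kilobase of exonic length, Pcna, the sliding clamp, had the highest level in every group, with 223 ± 37.0 CPM per kb in untreated DKO and 212 ± 37.9 in untreated WT (SD, n = 3 each). In untreated WT cells Mcm3, Mcm6, Mcm5, Mcm4, Uhrf1 and Mcm7 came next, at 120 ± 16.9, 95.4 ± 12.4, 89.5 ± 7.68, 83.5 ± 6.74, 83.5 ± 16.1 and 79.6 ± 14.5 CPM per kb, and neighbours from Mcm6 to Mcm7 lay within each other's SD. Gins3 and Clspn were at the low end there, with 7.20 ± 1.96 and 7.55 ± 1.92 CPM per kb. In stimulated cells Fen1 and Gins2 took the last places, with 9.91 ± 0.753 and 10.7 ± 2.96 CPM per kb in DKO, against 9.24 ± 0.250 and 7.79 ± 0.128 in WT (SD, n = 2 each).

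**Figure D2:**
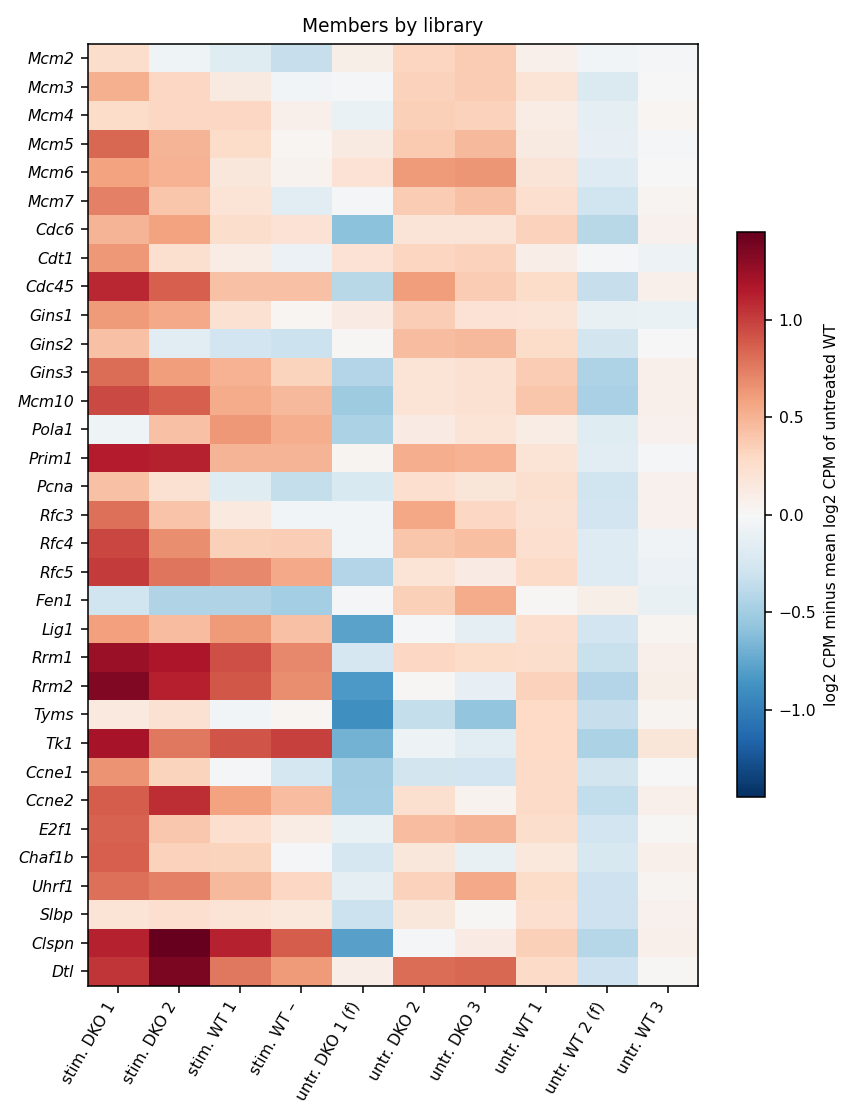
Levels of the 33 genes (rows) in 10 libraries (columns), as log2 CPM minus the mean log2 CPM of the 3 untreated WT libraries, with red above and blue below that mean. Columns run from stimulated DKO and stimulated WT to untreated DKO and untreated WT, f marks the 2 libraries that read as female and – the stimulated WT library without a number. Untreated DKO 1 and WT 2 are the lowest columns of their groups in 33 and 31 genes, and Rrm1, Rrm2, Tk1 and Clspn are dark red in stimulated DKO.

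The genotype comparison without stimulation asks whether these genes differ between DKO and WT B cells that were not given the antibodies. Of the 33 genes 3 passed an adjusted p of 0.05, or 9.09%, against 19.5% of 13561 genes tested (8.81% higher and 10.6% lower), a share below that of all genes. Mcm6 and Cdt1 were higher in DKO cells and Tyms was lower. The median log2 fold change of the 33 genes was 0.20, against -0.01 for all genes, with 19 estimates above 0 and 14 below. It was 0.002 without DKO 2, which held the most Hnrnpa1 and Hnrnpa2b1 RNA of the untreated DKO libraries, and 0.06 without WT 2. The size of the median thus rested on single libraries. In 4 genes all DKO libraries were above all WT libraries, as in 20.2% of all genes, and in 1 they were below, as in 19.3% of all genes. T cell markers other than Lck, which B cells can also express, summed to at most 4.10 CPM in any library. Lck had 45.3, 80.3 and 71.4 CPM in untreated DKO, against 96.4, 72.7 and 89.5 CPM in untreated WT, with overlap.

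Mcm6, a subunit of the replicative helicase, had 511, 677 and 690.4 CPM in untreated DKO, against 505, 389 and 442 CPM in untreated WT. The groups did not overlap, although the lowest DKO library, the female-reading one, was close to the highest WT library. Its log2 fold change was 0.48 ± 0.13 (SE), with an adjusted p of 0.0365 by edgeR's quasi-likelihood test. Cdt1, which loads the helicase together with CDC6, had 64.5, 69.2 and 70.0 CPM in DKO, against 59.6, 54.9 and 52.9 CPM in WT. All DKO libraries were above all WT libraries, with a log2 fold change of 0.27 ± 0.08 and an adjusted p of 0.0457 by edgeR. Tyms, thymidylate synthase, had 44.9, 65.1 and 55.8 CPM in DKO, against 101, 65.8 and 85.4 CPM in WT. The groups touched without overlapping, at DKO 2 and the female-reading WT 2, and the log2 fold change was -0.62 ± 0.18 with an adjusted p of 0.0388 by edgeR. Each of these calls ended when some of the 6 libraries were left out: the count was 0 without WT 3 or DKO 3, 1 without WT 1 or DKO 2, 3 without the female-reading WT 2, all of them lower, and 8 without the female-reading DKO 1, all of them higher. The share of all genes that passed moved as well, from 19.5% with all 6 libraries. It was 6.67% and 8.21% without WT 3 and DKO 3, and 12.3% and 13.7% without WT 1 and DKO 2. Without WT 2 it was 19.9%, and without DKO 1 it was 15.4%. With plain library totals in place of TMM scaling, Tyms alone passed, so the split of 2 higher and 1 lower became 0 and 1.

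All 6 MCM subunits had estimates above 0, with log2 fold changes of 0.20 to 0.48. Mcm2 had 237, 279 and 289 CPM in DKO, against 235, 219 and 219 CPM in WT, and Mcm5 had 391, 464 and 495 CPM in DKO, against 390, 329 and 354 CPM in WT. In both genes the DKO libraries were above the WT libraries by a narrow margin, and neither passed (adjusted p of 0.0778 for Mcm2 and 0.0593 for Mcm5 by edgeR). Mcm3, Mcm4 and Mcm7 overlapped between genotypes. Dtl, a substrate receptor of the CRL4 ubiquitin ligase that removes CDT1 in S phase, had the highest estimate, 0.58 ± 0.20 on the log2 scale, with 116, 191 and 194 CPM in DKO, against 132, 88.2 and 110.5 CPM in WT. Its groups overlapped through the female-reading DKO 1, and its adjusted p was 0.0756 by edgeR.

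Of the 4 genes of deoxynucleotide synthesis, Tyms passed as lower and the other 3 did not pass. Rrm2, the regulated subunit of ribonucleotide reductase, had 69.1, 124 and 113 CPM in DKO, against 155, 91.7 and 129.9 CPM in WT, a log2 fold change of -0.31 ± 0.23. Tk1, thymidine kinase, had 42.1, 64.6 and 60.5 CPM in DKO, against 82.5, 49.3 and 76.3 CPM in WT, a log2 fold change of -0.33 ± 0.21. Both overlapped between genotypes and did not pass, and Rrm1, the large reductase subunit, had a log2 fold change of 0.10 ± 0.17. The summed level of the 6 MCM genes divided by the summed level of the 4 synthesis genes was 5.72, 4.80 and 5.23 in untreated DKO libraries, against 3.60, 4.45 and 3.70 in untreated WT libraries. The ratio did not overlap between genotypes in these libraries, and it was 2.62 and 2.50 in stimulated DKO, against 2.49 and 2.42 in stimulated WT. It is a description with no test, formed after the values were seen.

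The remaining members are summarised by role. In helicase activation, Gins2 and Cdc45 had log2 fold changes of 0.30 ± 0.16 and 0.22 ± 0.24, Gins1 0.21 ± 0.13, and Gins3 and Mcm10 lay within 0.06 of 0. Prim1, the catalytic subunit of primase, reached 0.35 ± 0.15 with an adjusted p of 0.121 by edgeR. Rfc3, Rfc4, E2f1, Uhrf1 and Fen1 had estimates of 0.24 to 0.29, while Lig1, the ligase of Okazaki fragments, Ccne1, the gene of cyclin E1, and Clspn, the adaptor of the checkpoint kinase CHK1, had estimates of -0.30 ± 0.20, -0.37 ± 0.15 and -0.23 ± 0.24. None of these passed. Estimates of Cdc6, Pola1, Pcna, Rfc5, Ccne2, Chaf1b and Slbp lay between -0.08 and 0.06.

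**Figure D3:**
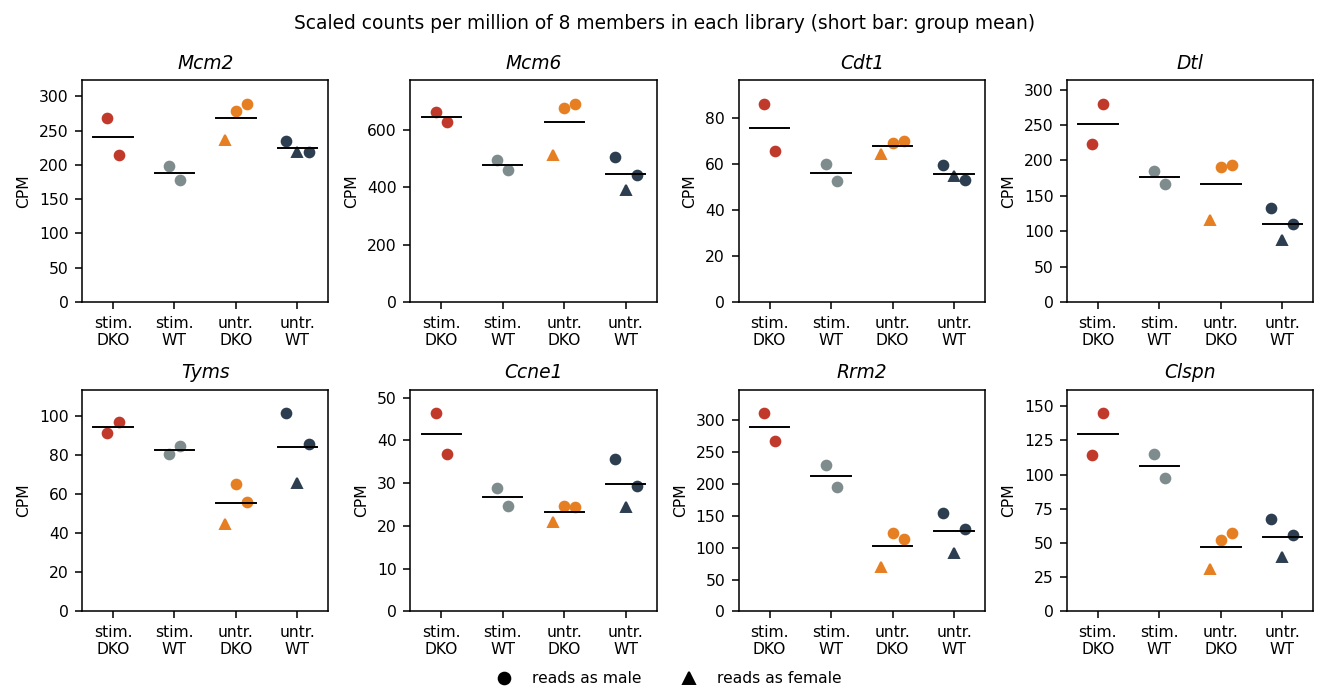
Scaled CPM of 8 of the 33 genes in each library, with 1 panel per gene and the y axis starting at 0. Points are libraries (triangles read as female, circles as male) and short bars are group means. For Mcm2, Mcm6 and Cdt1 every DKO point is above every WT point of the same culture, Tyms is lower in untreated DKO, and Rrm2 and Clspn are higher in every stimulated than in every untreated library.

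With a term for sex in the fit, 18 of the 33 genes passed, 13 higher and 5 lower in DKO, against 32.4% of all genes tested. All 3 genes of the fit without that term were among them. The higher genes were Mcm2, Mcm3, Mcm5, Mcm6, Mcm7, Cdt1, Gins2, Prim1, Rfc3, Rfc4, E2f1, Uhrf1 and Dtl, and the lower genes were Lig1, Rrm2, Tyms, Tk1 and Ccne1. Mcm6 was at 0.47 ± 0.07 (adjusted p of 0.000368 by edgeR), Dtl at 0.57 ± 0.08 (0.000459), Tyms at -0.61 ± 0.09 (0.000409) and Tk1 at -0.32 ± 0.07 (0.00649) on the log2 scale. The estimates hardly differed from those of the fit without the term, and the standard errors were smaller. Without the 2 female-reading libraries, a setting chosen after the data were seen, 14 genes passed, 11 higher and 3 lower, against 24.6% of all genes. Of all genes, 14.7% were higher and 17.7% lower with the term, and 11.5% and 13.1% without these libraries. By role, 5 of 6 MCM genes passed as higher with the term for sex and 4 of 6 without the female-reading libraries, and 3 of 4 and 2 of 4 deoxynucleotide synthesis genes passed as lower.

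The genotype comparison after stimulation asks the same of cells driven into cycle. None of the 33 genes passed in the 4 stimulated libraries, against 11.3% of 14430 genes tested (5.09% higher and 6.17% lower). At an unadjusted p of 0.05, 11 of the 33 genes passed, against 30.1% of all genes. DESeq2 called 3 at the adjusted threshold, all higher, against 13.7% of all genes. The estimates nevertheless lay mostly above 0, 30 of 33, with a median log2 fold change of 0.38, against -0.03 for all genes. In 26 genes both DKO libraries were above both WT libraries, an arrangement that 31.5% of all genes had, and in Pola1 both were below, as in 29.1% of all genes.

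Prim1 came closest to the threshold, with 152 and 149.7 CPM in stimulated DKO, against 97.4 and 97.0 CPM in stimulated WT. The libraries of each genotype lay close together, and the log2 fold change was 0.59 ± 0.17 with an adjusted p of 0.0512 by edgeR. Ccne1 had 46.3 and 36.9 CPM in DKO, against 28.9 and 24.8 CPM in WT (0.59 ± 0.18, adjusted p of 0.0644 by edgeR). Cdc45, which joins the helicase when origins fire, had 110.4 and 94.3 CPM in DKO, against 69.7 and 69.5 CPM in WT (0.51 ± 0.16, adjusted p of 0.0747 by edgeR). Pcna had 677 and 585 CPM in DKO, against 448 and 396 CPM in WT (0.53 ± 0.18, adjusted p of 0.0876 by edgeR). In each of these genes both DKO libraries were above both WT libraries. Rfc3, a clamp loader subunit, had an estimate of 0.52 ± 0.18 and Mcm7 one of 0.50 ± 0.20.

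Pola1, the catalytic subunit of the priming polymerase, ran the other way, with 89.2 and 124 CPM in stimulated DKO, against 144 and 133 CPM in stimulated WT. The library DKO 1 was the lower of the DKO libraries here, and the log2 fold change was -0.41 ± 0.21 with an adjusted p of 0.224 by edgeR. Mcm4, Fen1, Lig1, Tk1, Slbp and Clspn overlapped between genotypes, with estimates between -0.04 and 0.25. The remaining 20 genes with DKO above WT had estimates of 0.14 to 0.48.

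The median of the 33 genes in stimulated cells moved with single libraries. It was 0.33 without DKO 1, 0.42 without DKO 2, 0.42 without WT 1 and 0.29 without the unnumbered WT library. With 1 library in an arm that library is assumed to vary like the other genotype, so counts of genes past the threshold are not given for these fits. When the 10 libraries of both cultures shared 1 estimate of the spread, 5 genes passed, all higher, against 22.9% of all genes. Summed markers of dendritic cells were 69.1 and 76.5 CPM in stimulated DKO, against 39.2 and 46.1 CPM in stimulated WT. Those of plasma cells were 578 to 590 CPM in DKO, against 458 to 526 CPM in WT, and those of monocytes 56.5 to 63.2 CPM in DKO, against 66.7 to 75.0 CPM in WT. Genes within a list did not always run alike. Irf4 made up most of the plasma cell sum, with 467 and 502 CPM in stimulated DKO, against 404 and 365 CPM in stimulated WT. Xbp1 of that list ran the other way, with 46.3 and 38.8 CPM in DKO, against 78.7 and 62.9 CPM in WT. Lyz2 of the monocyte list was higher in DKO, with 13.3 and 11.5 CPM, against 6.7 and 9.2 CPM in WT. The part of these cell types in the result was not tested. In bulk RNA, fewer cells of a type and less RNA per cell cannot be told apart.

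**Figure D4:**
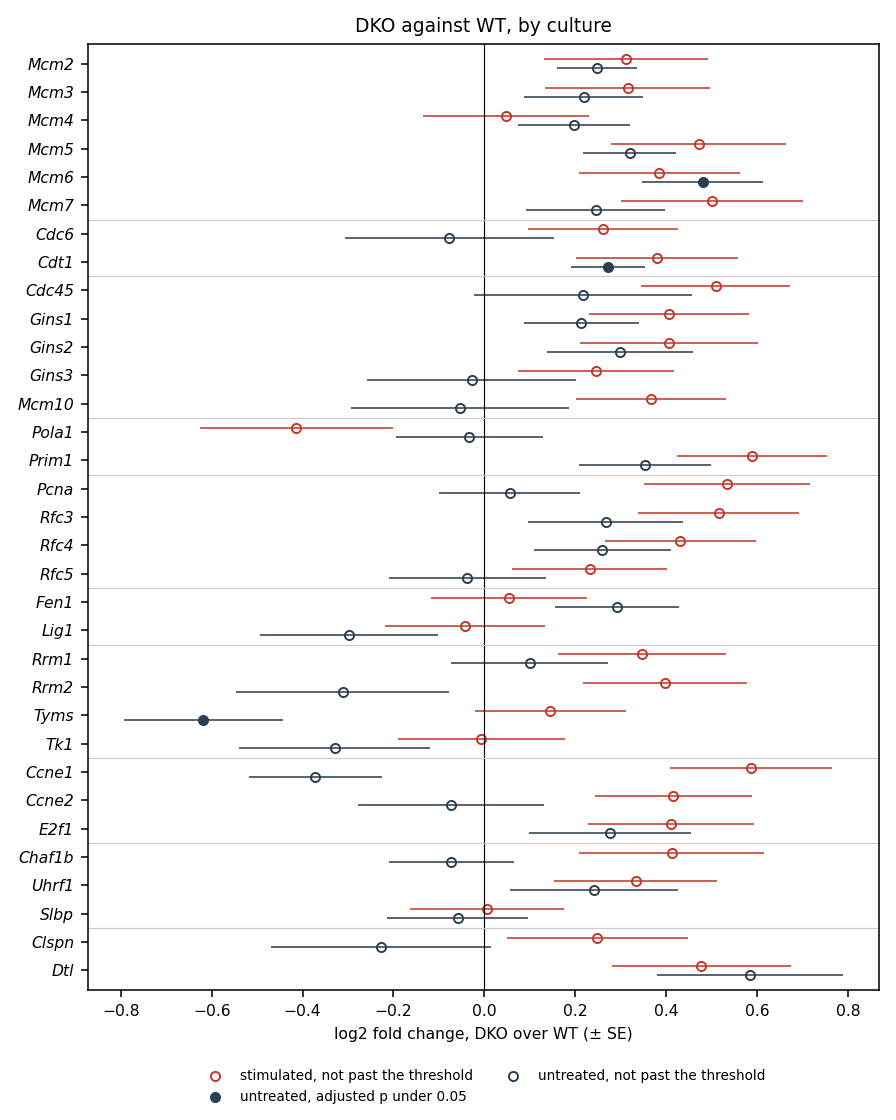
Log2 fold change of DKO over WT (x axis, ± SE) for the 33 genes in order of role (y axis), in stimulated cells (red) and untreated cells (dark blue), where filled points passed an adjusted p of 0.05. In stimulated cells 30 estimates lie right of 0 and no point is filled, and in untreated cells the 3 filled points are Mcm6, Cdt1 and Tyms.

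After stimulation for 48 h part of the module was higher in both genotypes. In DKO cells 16 of the 33 genes rose and 1 fell, against 33% of 15006 genes that passed in either direction (16.2% higher and 16.8% lower). In WT cells 8 rose and 1 fell, against 40.6% of all genes (17.8% higher and 22.8% lower). In DKO all stimulated libraries were above all untreated ones in 21 genes and below in 1, as in 26.3% and 27.7% of all genes, and in WT this held for 14 genes above and 3 below, as in 31.7% and 35.3% of all genes. The median log2 fold change was 0.55 in DKO and 0.19 in WT, against -0.01 and -0.02 for all genes. The median was 0.35 in DKO without untreated DKO 1, and in WT it was 0.33 without untreated WT 1, 0.11 without untreated WT 2 and 0.29 without the unnumbered stimulated library. None of the 6 MCM genes and neither licensing factor passed in either genotype, and deoxynucleotide synthesis had 4 of 4 genes higher in DKO and 3 of 4 in WT, and Clspn and Dtl were higher in both. The difference between roles has no test. Cdc6, a licensing factor, had 90.2 and 95.7 CPM in stimulated DKO, against 42.4, 72.6 and 72.7 CPM in untreated DKO, a log2 fold change of 0.57 ± 0.22 with an adjusted p of 0.0688 by edgeR, and it passed in 5 of 18 alternatives.

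The cultures differed in more than the antibodies. These libraries come from separate tables, and the labels' protocols describe culture for stimulated cells and RNA extraction after isolation for untreated ones, so culture and the antibodies cannot be told apart. Genes known to respond early to B cell activation were not low in untreated cells. Myc averaged 373 ± 72.6 CPM in stimulated DKO and 170 ± 14.3 CPM in stimulated WT, against 461 ± 80.3 CPM in untreated DKO and 350 ± 56.8 CPM in untreated WT. Ccnd2, the gene of cyclin D2, averaged 454 ± 51.1 and 324 ± 54.4 CPM in stimulated DKO and WT, against 740 ± 38.9 and 661 ± 92.9 CPM in untreated DKO and WT (SD, n = 2 and 3). Klf2, a factor of quiescent lymphocytes, averaged 7.44 ± 0.116 CPM in stimulated DKO and 6.54 ± 0.979 CPM in stimulated WT, against 6.77 ± 1.53 CPM in untreated DKO and 14.5 ± 1.40 CPM in untreated WT. How the state of the untreated cells bears on the stimulation values was not tested.

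Rrm2 had 311 and 267 CPM in stimulated DKO, against 69.1, 124 and 113 CPM in untreated DKO, a log2 fold change of 1.5 ± 0.23 (adjusted p of 0.000406 by edgeR). In WT cells it had 229 and 196 CPM after stimulation, against 155, 91.7 and 129.9 CPM without it, a log2 fold change of 0.76 ± 0.23 (adjusted p of 0.0209). Clspn had 114 and 145 CPM in stimulated DKO, against 30.9, 52.1 and 57.5 CPM in untreated DKO, and 115 and 97.2 CPM in stimulated WT, against 67.4, 39.8 and 55.6 CPM in untreated WT. Every stimulated library was above every untreated one for both genes, and the log2 fold changes of Clspn were 1.47 ± 0.24 in DKO and 0.97 ± 0.24 in WT (adjusted p of 0.000665 and 0.00713 by edgeR). Tk1 had 155 and 115 CPM in stimulated DKO, against 42.1, 64.6 and 60.5 CPM in untreated DKO, and 127 and 134 CPM in stimulated WT, against 82.5, 49.3 and 76.3 CPM in untreated WT. Its log2 fold changes were 1.28 ± 0.22 and 0.92 ± 0.22, and those of Rrm1 were 1.08 ± 0.18 in DKO and 0.80 ± 0.18 in WT.

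Rfc5, Prim1, Rrm1, Rrm2, Tk1, Clspn and Dtl were higher after stimulation in both genotypes, 7 genes in all. The WT calls of Prim1, Rfc5, Rrm2 and Dtl ended without untreated WT 2, untreated WT 3 or either. Pola1 passed in WT alone, at 0.57 ± 0.19 in WT and 0.22 ± 0.19 in DKO. Another 9 passed in DKO alone, namely Cdc45, Gins3, Mcm10, Rfc4, Lig1, Tyms, Ccne1, Ccne2 and Chaf1b, with log2 fold changes in DKO from 0.55 to 1.01. A gene past the threshold in one genotype only is not shown to differ between them, and the test of that difference follows. Fen1, the flap endonuclease, fell in both, with 25.3 and 22.7 CPM in stimulated DKO, against 30.4, 39.0 and 44.7 CPM in untreated DKO, and 22.8 and 21.95 CPM in stimulated WT, against 31.3, 32.7 and 28.6 CPM in untreated WT. Its log2 fold changes were -0.66 ± 0.16 and -0.46 ± 0.16 (adjusted p of 0.0063 and 0.0316 by edgeR).

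None of the 6 MCM genes passed between stimulated and untreated cells. Mcm5 was apart between the DKO cultures, with 636 and 499.6 CPM in stimulated DKO, against 391, 464 and 495 CPM in untreated DKO, a log2 fold change of 0.34 ± 0.14 (adjusted p of 0.0932 by edgeR), and it passed with DESeq2 and without stimulated DKO 2. Mcm2 had 268 and 215 CPM in stimulated DKO, against 237, 279 and 289 CPM in untreated DKO, and 198 and 178 CPM in stimulated WT, against 235, 219 and 219 CPM in untreated WT. The stimulated WT libraries were the lower ones, while the DKO libraries overlapped. The log2 fold changes of the 6 subunits ran from -0.15 to 0.34 in DKO and from -0.25 to 0.19 in WT, with standard errors of 0.13 to 0.19. The WT count moved with single untreated libraries. In WT 4 genes passed without untreated WT 2, against 36.1% of all genes, and 6 without untreated WT 3, against 33.9%. Without untreated WT 1 there were 12, against 34.9%. Leaving out a stimulated WT library leaves 1 in that group, so only the median is given for those fits. The WT median was 0.14 without stimulated WT 1 and 0.29 without the unnumbered stimulated WT library. In DKO the count was 13 without untreated DKO 1, against 26.4% of all genes, and 19 without untreated WT 2, against 33.4%. With a term for sex there were 19 genes past the threshold in DKO and 11 in WT, against 31.3% and 39.8% of all genes. The medians were 0.38 and 0.07, so the median difference was smaller when the female-reading untreated libraries were allowed for.

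**Figure D5:**
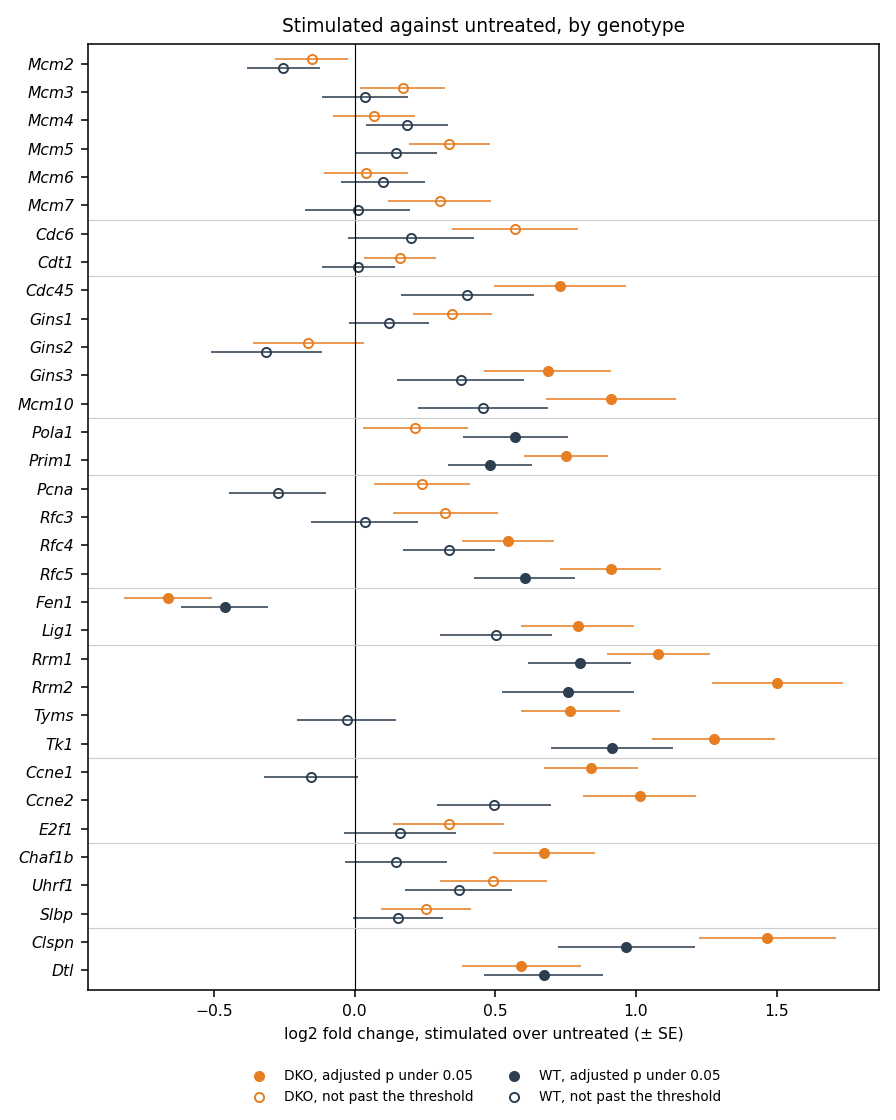
Log2 fold change of stimulated over untreated cells (x axis, ± SE) for the 33 genes in order of role (y axis), in DKO (orange) and WT (dark blue), where filled points passed an adjusted p of 0.05. The 6 MCM genes at the top have no filled point and lie between -0.25 and 0.34, and Rrm2 and Clspn reach 1.5 and 1.47 in DKO.

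Whether stimulation acted differently in the genotypes was tested as an interaction over the 10 libraries. None of the 33 genes passed, against 0.14% of all genes, or 21 of 15006 (20 higher, 0.133%, and 1 lower, 0.00666%). At an unadjusted p of 0.05, 3 of the 33 genes passed, against 12% of all genes. DESeq2 called 1 at the adjusted threshold, against 1.16% of all genes. The estimates were above 0 in 28 genes, with a median of 0.28, against 0.05 for all genes. The median was 0.11 without untreated WT 1, 0.13 without untreated DKO 1 and 0.14 without stimulated DKO 1. Ccne1 had the highest, a difference of 1.00 ± 0.24 between log2 fold changes of 0.84 ± 0.17 in DKO and -0.16 ± 0.17 in WT, with an adjusted p of 0.152 by edgeR. Tyms followed, with 0.77 ± 0.17 in DKO and -0.03 ± 0.18 in WT and a difference of 0.79 ± 0.25 (adjusted p of 0.271 by edgeR). For both genes the untreated DKO level was the lowest of the 4 group means.

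Other genes of replication give the setting, from 84 genes in 7 lists that hold none of the 33. Between untreated DKO and WT 7 were higher and 3 lower (8.33% and 3.57%, against 8.81% and 10.6% of all genes), and between stimulated DKO and WT 8 were higher and 1 lower (9.52% and 1.19%, against 5.09% and 6.17% of all genes). After stimulation 32 were higher and 7 lower in DKO (38.1% and 8.33%, against 16.2% and 16.8% of all genes), and 28 higher and 13 lower in WT (33.3% and 15.5%, against 17.8% and 22.8% of all genes). Mtbp, a partner of TICRR in origin firing, had 115 and 117 CPM in stimulated DKO, against 57.5 and 51.6 CPM in stimulated WT, and 108, 115 and 127 CPM in untreated DKO, against 83.7, 80.6 and 72.7 CPM in untreated WT. It was higher in DKO in both cultures, by 1.04 ± 0.17 with stimulation and 0.55 ± 0.09 without it on the log2 scale (adjusted p of 0.00835 and 0.00536 by edgeR). Shmt1, a serine hydroxymethyltransferase that feeds thymidylate synthesis, was likewise higher in both, by 0.90 ± 0.18 and 0.41 ± 0.07.

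Cdkn1a, which encodes the CDK inhibitor p21, was the 1 gene of these 84 whose interaction passed. It had 29.2 and 17.4 CPM in stimulated DKO, against 1.44 and 2.21 CPM in stimulated WT, and 49.4, 38.5 and 31.1 CPM in untreated DKO, against 44.7, 53.9 and 43.6 CPM in untreated WT. The stimulated groups were far apart and the untreated groups overlapped. The log2 fold change of DKO over WT was 3.62 ± 0.32 in stimulated cells (adjusted p of 0.00115 by edgeR) and -0.27 ± 0.16 in untreated cells (0.266). Cdkn1a was lower in stimulated than in untreated cells, with a log2 fold change of -0.76 ± 0.24 in DKO and of -4.70 ± 0.31 in WT. The interaction of 3.93 ± 0.38 passed with an adjusted p of 0.0025 by edgeR. The size of these WT and interaction estimates rests on the low level of 1.44 and 2.21 CPM in stimulated WT.

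A list of 30 mitosis genes, whose products act after S phase, was set beside the module. All 30 were higher after stimulation in each genotype, with median log2 fold changes of 2.2 in DKO and 1.54 in WT, against 0.55 and 0.19 for the 33 genes. Between untreated DKO and WT 8 of the 30 were lower and 0 higher (against 10.6% and 8.81% of all genes), with a median of -0.64, and between stimulated DKO and WT 0 passed, with a median of -0.10. Mki67, a marker of cycling cells, had 832 and 1605 CPM in stimulated DKO, against 1566 and 1571 CPM in stimulated WT, and 128, 204 and 274 CPM in untreated DKO, against 417, 234 and 349 CPM in untreated WT. The first stimulated DKO library stood apart from the other 3 stimulated libraries in this gene, and untreated groups overlapped.

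The counts of 7 of the 33 genes could hold reads of a neighbour. Mcm7, Cdc45, Gins2, Rfc4, Rfc5, Fen1 and Ccne2 overlap a gene on the opposite strand whose mean level is over 10% of their own, and no source used here gives the strand setting of the counting. The neighbour was above the member for Rfc4, at 62.3 CPM beside 709 CPM of Eif4a2, for Ccne2, at 43.1 CPM beside 74.2 CPM of Ints8, and for Fen1, at 29.9 CPM beside 49.1 CPM of Tmem258 (means over the 10 libraries). The changes given above for Rfc4, Ccne2 and Fen1 are therefore uncertain, and for Cdc45, at 68.7 CPM, Ufd1 was close, at 62.9 CPM.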

How the data were processed

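The 12 libraries were made from poly(A) RNA. The deposited tables hold raw counts per gene for each library, and another 12 columns of FPKM values were not used. The submitters' processing notes name cutadapt 1.9.1, FastQC 0.10.1, HISAT2 2.2.1, HTSeq 0.6.1 and the build GRCm39. The strand setting is not given in the sources used here. The 33 genes and all lists were chosen with earlier results of these data known, and all 33 are named. Of the lists, genes are named from the 3 with the smallest p in a comparison. Mki67, Myc, Ccnd2 and Klf2, which fall outside that rule, were named after their values were seen. Lck, Irf4, Xbp1 and Lyz2 of the cell type marker lists were not picked by that rule either.

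The test was edgeR 4.0.16's two-sided quasi-likelihood test in R 4.3.3, with TMM scaling. Genes were kept by filterByExpr at a count of at least 10 and a total of at least 15. Benjamini-Hochberg adjustment ran over all genes tested, with a threshold of 0.05. DKO and WT were compared in 6 untreated and in 4 stimulated libraries, in separate fits. Stimulated and untreated cells and the interaction were compared in 1 fit over 10 libraries. Levels are CPM on the TMM factors of that fit. The standard error is the absolute log2 fold change over the square root of F. A stimulated WT column carries a number that the labels do not give, and it is used without a number. The alternatives were RLE scaling, plain totals, DESeq2 1.42.0, no filter, a stricter filter (1 CPM throughout a group), fits without each library in turn, a replicate block, a shared fit, the additional WT libraries as WT and a term for sex. Fits without the female-reading libraries, and the term for sex in the joint fit, were chosen after seeing the data. The procedure was tested on simulated data.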

Additional observations from a re-analysis of the deposited data

How the results depend on the processing

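Of the 33 genes, the number past the threshold between untreated DKO and WT was 3, against 19.5% of all genes. It was 1 with plain library totals, 5 with DESeq2 and 5 with no filter on low counts, against 20.3%, 21.2% and 12.7% of all genes. It was 0 when the additional libraries joined the WT group (2.28% of all genes), 18 with a term for sex (32.4%) and 14 without the female-reading libraries (24.6%). When 1 library was left out it was 0 to 8, with 6.67% to 19.9% of all genes. With the replicate number as a block it was 0, against 5.8% of all genes. Same-numbered untreated libraries correlated at -0.40, -0.41 and 0.19 in their deviations from the group means. DKO 1 and WT 2, which both read as female, correlated at 0.50. Deviations within a group of 3 libraries sum to 0, so 1 such pair shifts the others. The check therefore cannot tell whether the numbers pair the samples. For stimulated against untreated DKO cells the block gave 17 genes, as without it, against 21.2% of all genes. Of these 17 genes 16 were the same, and the call of Fen1 was lost (adjusted p of 0.0918 by edgeR). For stimulated against untreated WT cells the block by the numbers in the column names gave 18 genes, 14 higher and 4 lower, against 53.8% of all genes, and the block by the numbers in the titles, chosen after seeing the data, gave 14, against 36.2%, each with the 9 genes called without it. Only 2 numbers are shared there, at correlations of 0.04 and 0.17 by column. For stimulated DKO against WT the columns share only 1 number, and a block by the numbers in the titles was not run. Between stimulated DKO and WT the number was 0. It was 1 with RLE scaling, 3 with DESeq2, 2 with no filter, 1 with the stricter filter, 5 in the shared fit and 0 to 23 when 1 library was left out. Between stimulated and untreated WT cells it was 9 (40.6% of all genes), with 14 under no filter (23.5%). It was 4 without untreated WT 2 (36.1%), 6 without untreated WT 3 (33.9%) and 12 without untreated WT 1 (34.9%). For fits without a stimulated WT library, which leave 1 in that group, only the median is given. For the interaction it was 0 (0.14% of all genes), with 1 by DESeq2 (1.16%) and 3 with no filter (1.83%). It stayed 0 when 1 untreated library was left out, with 0.0332% to 0.479% of all genes. Leaving out a stimulated library leaves 1 in its group, so no count is given for those fits. The interaction median was then 0.14 without DKO 1, 0.36 without DKO 2, 0.30 without WT 1 and 0.19 without the unnumbered WT library. With 1 library left out, the median of the 33 genes ran from 0.002 to 0.27 between untreated DKO and WT, 0.29 to 0.42 between stimulated DKO and WT, 0.35 to 0.64 for stimulation in DKO, 0.11 to 0.33 for stimulation in WT and 0.11 to 0.37 for the interaction. The cause of these changes was not tested. The lowest count of the 33 genes in a library was 184, and the 2 or 3 libraries per group limit every test.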

Other observations

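The additional WT libraries come from a table of their own, with gene coordinates of another build, and were set beside the numbered untreated WT libraries on a scale of 12 libraries. Both were below all 3 numbered WT libraries in 8 of the 33 genes (Mcm2, Mcm3, Mcm4, Mcm5, Cdt1, Ccne1, Chaf1b and Uhrf1) and above all 3 in 5 genes (Cdc6, Cdc45, Pola1, Rfc4 and Dtl), and they overlapped in 20. Mcm2 had 84.7 and 111 CPM in the additional WT libraries, against 237, 217 and 220 CPM in the numbered ones. Ccne1 had 11.9 and 15.8 CPM, against 35.9, 24.4 and 29.5 CPM. Rfc4 had 68.3 and 100.3 CPM, against 58.0, 42.4 and 47.4 CPM. The mean of Mcm2 in the additional libraries was 0.436 times that in the numbered WT libraries, and the fold change of Mcm2 between untreated DKO and numbered WT was 1.19. These differences between WT libraries were not tested. The share of all genes that lay apart in the same way was not computed, so the counts show nothing particular to the 33 genes.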
